A study of Caenorhabditis elegans with 2 samples.

Results

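Small nucleolar RNA (snoRNA) genes were examined as binding places of NHR-25 in the nematode Caenorhabditis elegans. The members are the 346 genes that the WBcel235 annotation (Ensembl release 115) types as snoRNA, out of 46926 annotated genes of all types, each extended by 500 bp on both sides. A snoRNA gene is called bound here when the summit of a peak in the authors' thresholded list lies in its extended region. Of the 346 genes, 66 were bound.

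NHR-25 is a nuclear hormone receptor, a transcription factor of the NR5A family, with known roles in the worm epidermis, molting and larval development. Its binding was measured by chromatin immunoprecipitation and sequencing (ChIP-seq) in 2 biological replicates of 1 group, whole hermaphrodite larvae at the L4 stage, of unknown age. The strain was OP33 (unc-119(ed3) III; wgIs33), in which a stably expressed NHR-25 fusion carries GFP and FLAG on the C-terminal side, and the antibody was against GFP. Whole animals were used, so binding in one tissue cannot be told apart from binding in another. No other genotype, stage or treatment was analysed here, and no input or untagged control was analysed here.

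SnoRNAs are short nuclear RNAs that work in the nucleolus with a fixed set of proteins. Those with C and D boxes guide 2′-O-methylation of ribosomal RNA and other RNAs, and those with H and ACA boxes guide pseudouridylation. Many lie in introns and are cut out of the transcript of their host gene, while others are transcribed from a promoter of their own by RNA polymerase II or III. RNA polymerase III genes such as tRNA genes are recognised through an A box and a B box, short elements within the transcribed sequence that the factor TFIIIC contacts.

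The annotated snoRNA genes were 54 to 344 bp long, with a median of 130 bp. All were nuclear. Of the 346, 145 lay in an intron of a protein-coding gene on the same strand and 27 in an intron on the opposite strand. A further 109 were intergenic, 15 overlapped another noncoding gene or a pseudogene, and 50 overlapped an exon or an edge of a protein-coding gene. Their sequences all differed, since 0 genes had an identical or reverse complement copy in the set. In 16 genes a C box (ATGATGA or GTGATGA) stood in the first part and a D box (CTGA) in the remaining part. In a further 85 an ACA stood in the last 7 bases. The other 245 had neither by these strict letters.

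The bound genes below illustrate both box types and are shown as annotated, 5′ to 3′ on the gene's strand, from the WBcel235 reference. In the first 3, capitals mark the C box and the last D box. The last 2 are the snoRNA genes with the strongest summits of all, and capitals mark the ACA near their 3′ end.
C08D8.3 (chrV:8349108-8349187, plus strand): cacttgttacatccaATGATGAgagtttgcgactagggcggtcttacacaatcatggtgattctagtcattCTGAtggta
F55A11.10 (chrV:11782992-11783082, plus strand): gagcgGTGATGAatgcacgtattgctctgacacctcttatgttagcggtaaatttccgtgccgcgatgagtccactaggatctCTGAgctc
C18A3.12 (chrII:5701662-5701726, plus strand): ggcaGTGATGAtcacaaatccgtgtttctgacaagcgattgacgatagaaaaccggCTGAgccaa
C06A1.9 (chrII:10562952-10563064, minus strand): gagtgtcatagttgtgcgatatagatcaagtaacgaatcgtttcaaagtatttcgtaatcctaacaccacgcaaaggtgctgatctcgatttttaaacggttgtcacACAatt
F54E7.10 (chrIII:5679378-5679509, plus strand): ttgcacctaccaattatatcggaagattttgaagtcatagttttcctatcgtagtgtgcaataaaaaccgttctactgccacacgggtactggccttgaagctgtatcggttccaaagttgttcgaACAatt

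A second set of sequences illustrates the A and B box cores described below. Each is the 80 bases just before an annotated snoRNA gene, 5′ to 3′ on the gene's strand. Capitals mark TGGCNNAG, the core of an A box, and GTTCGA, the core of a B box. The genes shown are those off the first chromosome with an A core starting 80 to 40 bases before the gene and a B core starting within the last 30. The first 6 genes were bound.
ZK546.18 (chrII:4942520-4942599, minus strand): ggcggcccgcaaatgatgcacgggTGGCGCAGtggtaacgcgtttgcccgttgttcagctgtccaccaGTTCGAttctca
T10B9.11 (chrII:9774835-9774914, minus strand): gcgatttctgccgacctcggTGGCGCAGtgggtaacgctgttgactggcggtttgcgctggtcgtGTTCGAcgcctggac
F32E10.10 (chrIV:7574042-7574121, plus strand): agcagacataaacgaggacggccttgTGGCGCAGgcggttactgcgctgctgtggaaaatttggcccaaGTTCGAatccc
K11C4.6 (chrV:6888996-6889075, plus strand): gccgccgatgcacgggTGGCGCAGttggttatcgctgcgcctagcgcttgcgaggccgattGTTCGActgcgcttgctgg
F55A11.10 (chrV:11782912-11782991, plus strand): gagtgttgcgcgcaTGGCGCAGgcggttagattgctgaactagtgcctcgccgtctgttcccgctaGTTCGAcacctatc
Y43F8C.22 (chrV:19643188-19643267, minus strand): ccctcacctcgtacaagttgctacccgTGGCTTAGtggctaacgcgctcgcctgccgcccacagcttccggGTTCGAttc
The other 4 genes with both cores were not bound.
T24H7.6 (chrII:6248637-6248716, plus strand): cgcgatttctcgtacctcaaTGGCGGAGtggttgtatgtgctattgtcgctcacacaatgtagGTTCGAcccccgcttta
W03C9.9 (chrII:11960818-11960897, plus strand): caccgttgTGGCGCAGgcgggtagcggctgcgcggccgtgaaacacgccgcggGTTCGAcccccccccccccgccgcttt
T06C12.16 (chrV:15873927-15874006, minus strand): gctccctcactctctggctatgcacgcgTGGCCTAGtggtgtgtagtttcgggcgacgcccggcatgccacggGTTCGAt
Y59E1B.14 (chrX:1891429-1891508, plus strand): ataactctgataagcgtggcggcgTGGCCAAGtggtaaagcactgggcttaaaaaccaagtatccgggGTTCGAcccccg

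The data are 4 deposited peak lists on ce11, which is WBcel235. They hold 23929 peaks for replicate 1, 30000 for replicate 2, 30000 for both replicates pooled and 1826 in the thresholded list. The signal of a peak is the authors' own value on an unstated scale and serves only to rank peaks within a list. Depth is unknown, because the lists hold no read counts. The 3 larger lists are named as peaks and background, so an entry there need not be a binding site.

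NHR-25 summits were common at snoRNA genes. A thresholded summit lay within 500 bp of 66 of 346 snoRNA genes, or 19.1% (Wilson 95% interval 15.3% to 23.5%, counting error only). The same was true of 4.89% of all 46580 other annotated genes. It was true of 7.5% of 9016 other noncoding genes no longer than the longest snoRNA gene, without the piRNA genes (interval 6.97% to 8.06%). Of 19985 protein-coding genes, 4.8% had a thresholded summit within 500 bp of a 5′ end. Among other small RNA genes, the share was 14.7% of 129 snRNA genes (interval 9.64% to 21.9%), 14.4% of 612 nuclear tRNA genes (11.8% to 17.4%) and 9.2% of 261 miRNA genes (6.26% to 13.3%). The intervals of snRNA and tRNA genes overlap that of snoRNA genes, and those of the other classes do not. Genes in a class are not replicates and can share a summit, and no test of the differences between classes was made.

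**Figure D1:**
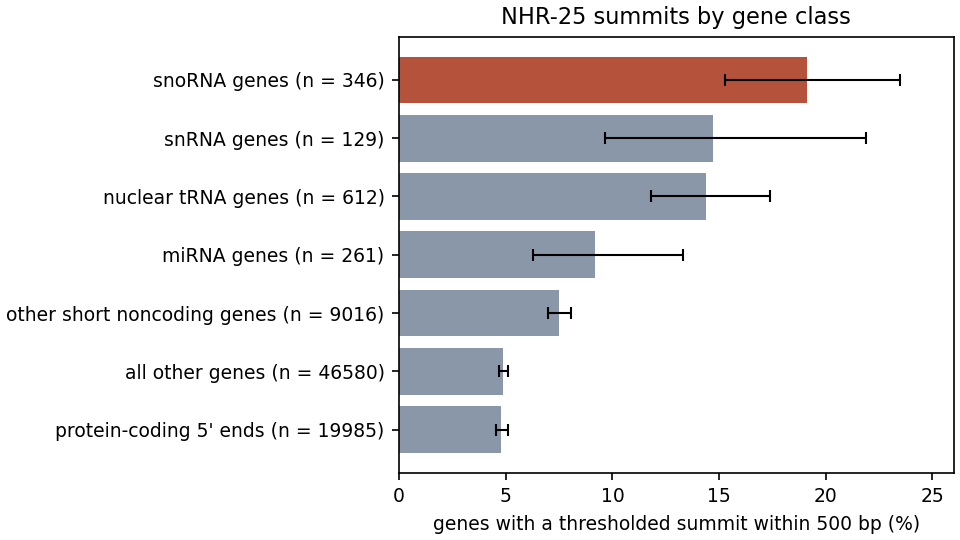
Share of genes, in percent, with a thresholded NHR-25 summit within 500 bp, by gene class. Bars start at 0 and lines are Wilson 95% intervals for counting error. SnoRNA genes stand at 19.1%, snRNA and tRNA genes at 14.7% and 14.4%, and protein-coding 5′ ends at 4.8%.

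The 66 bound genes were served by 64 summits, 3.50% of the thresholded list, in regions that cover 0.375% of the nuclear genome. That is 17.0 summits per 100 kb of region against 1.80 per 100 kb of the nuclear genome. No snoRNA gene had more than 1 summit. The pairs C51F7.3 and C51F7.4, and C27H5.9 and C27H5.10, each shared a summit. Only 1 of the 64 summits also lay within 500 bp of a tRNA gene and 1 within 500 bp of an snRNA gene.

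The signals at snoRNA genes were middling ones. The 64 peaks had a median signal of 42.4, with quartiles of 36.8 and 52.0, and the other 1737 nuclear thresholded peaks had a median of 41.0 and quartiles of 34.8 and 53.9. Among the 100 strongest nuclear peaks, 4 lay at snoRNA genes, and the best placed ranked 17. The weakest bound genes were K11C4.6 at 30.4, R166.7 at 30.7 and D2021.6 at 30.8, and the strongest unbound one was smy-3 at 29.7. Just below the threshold, F17C11.24 had a pooled signal of 29.4, F25H2.15 29.4, F43A11.8 28.2 and W03C9.9 28.1. The values just inside and just outside differ little, so genes near the threshold are divided by a small step in signal.

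Weaker entries of the pooled list were found at a further 148 snoRNA genes. In all, 214 of 346 (61.8%, interval 56.6% to 66.8%) had a pooled summit, against 40.9% of the other short noncoding genes. In the 148, the strongest pooled summit of each gene had a median signal of 12.8. The median of the pooled list was 8.04, over all its entries and not the strongest per gene. The remaining 132 genes had no pooled summit.

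The replicates each showed binding at snoRNA genes. The 1826 strongest peaks of replicate 1 placed a summit at 56 snoRNA genes (16.2%), against 6.82% of the other short noncoding genes. Those of replicate 2 did so at 61 (17.6%), against 7.32%. The replicates had 32 of these genes in common, of 85 found in either. The peak of every bound gene overlapped an entry of both full replicate lists; that list was made from these. Of the 64 thresholded peaks, 31 overlapped one of the strongest peaks of both replicates and 1 overlapped none of either. Signals at these peaks ran from 3.42 to 57.8 in replicate 1, with a median of 16.4, and from 12.8 to 78.5 in replicate 2, with a median of 25.7. The order of the loci showed almost no relation between replicates, with a Spearman rho of 0.0852 over 64 peaks chosen on pooled signal. Replicate values below are those of the strongest overlapping peak, given as replicate 1 and then replicate 2 where not named. The 1826 strongest peaks reached down to 13.2 in replicate 1 and 19.8 in replicate 2, and the lists need not share a scale. A higher value in one replicate is therefore not read as stronger binding there.

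Most summits sat near the 5′ end of the snoRNA genes. Of the 66 bound genes, 41 had the summit upstream, 17 inside the gene and 8 downstream, and the median position was −26.5 bp from the 5′ end (negative is upstream). In 44 genes (66.7%) the summit lay within 100 bp of the 5′ end, a stretch that makes up 18.3% of the median extended region. In the pooled list, the 100 bp before the 5′ end held 63 summits, while the 100 bp bins 500 to 1500 bp away held 11 to 24 with a median of 18.5. In the thresholded list, that first bin held 27 summits, and the distant bins held 0 to 7 with a median of 2. The same bin was the highest in replicate 1, with 56 summits against a median of 14.5, and in replicate 2, with 60 against 17.5. The 100 bp from the 5′ end on held 40 summits in the pooled list and 17 in the thresholded list. Bound genes had a median length of 99.5 bp, so that stretch takes in the whole gene in many of them.

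**Figure D2:**
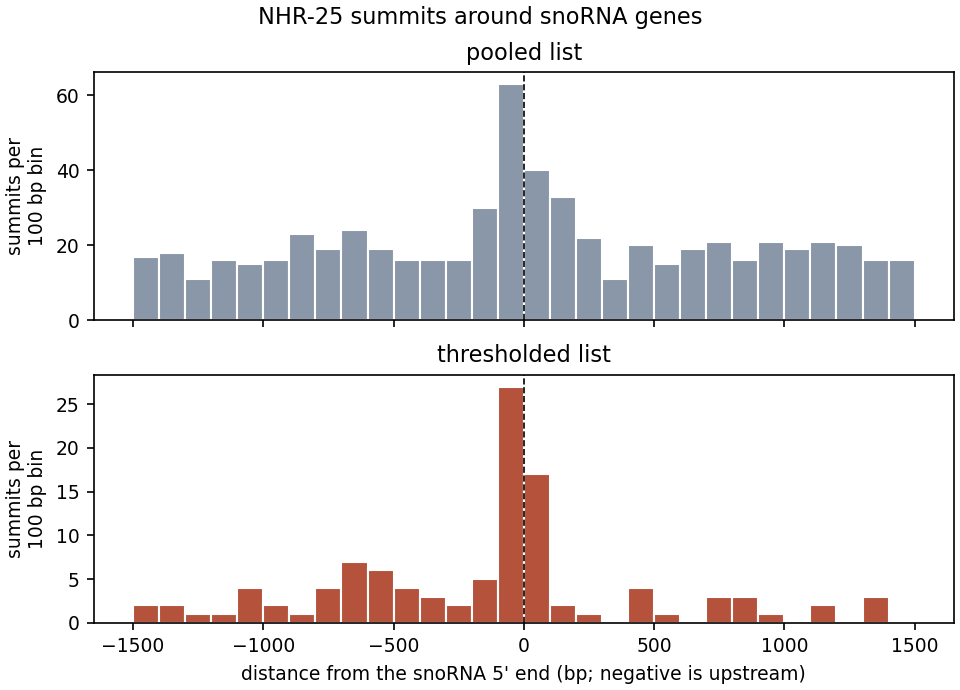
Number of NHR-25 summits per 100 bp bin against the distance from the 5′ end of 346 snoRNA genes, on the gene's strand, in the pooled and the thresholded list. Both lists peak in the 100 bp just upstream, with 63 and 27 summits.

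Most bound snoRNA genes had a summit away from protein-coding promoters. The summit was over 500 bp from every protein-coding 5′ end in 39 of the 66. Counted over all snoRNA genes, bound or not, this is 39 of 346, with an interval of 8.36% to 15%. The matching share of all 9016 other short noncoding genes was 4.99%. At these 39 genes the median distance from summit to snoRNA 5′ end was 51 bp, and 32 were within 100 bp. At the other 27 the median was 121 bp, 12 were within 100 bp, and the snoRNA 5′ end was the nearer one in 15. By summits, 26 of 64 (40.6%) were promoter-proximal, close to the 44.4% of other nuclear thresholded summits. The median signal was 41.9 at the 39 genes and 44.2 at the 27.

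The 2 strongest snoRNA peaks lay near protein-coding 5′ ends. The peak at chromosome II 10563464 to 10563676 reached 136 in signal, and the replicates gave 57.4 and 78.5. Its summit was 498 bp upstream of C06A1.9 (WBGene00045152), just inside the region, and 155 bp from a 5′ end of the host cdc-48.1, which encodes a p97-type ATPase. F54E7.10 (WBGene00044941), in an intron of the ribosomal protein gene rps-12, had a peak at chromosome III 5679038 to 5679253. Its signal was 116 when pooled, and the replicates gave 54.5 and 60.4. That summit was 138 bp from a 5′ end of ska-3. At F54E7.10 both replicates had a summit in the region among their strongest peaks. At C06A1.9 neither did: the region held 0 summits of replicate 1 and 1 weak one of replicate 2, with 4.84, so that gene is counted through the pooled summit near the region's edge.

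Further snoRNA genes in ribosomal protein hosts were bound. Y24D9A.9, in an intron of rpl-7A, had a signal of 80.6, with 32.8 and 49.6 in replicates 1 and 2, and its summit was 366 bp upstream of the snoRNA and 84 bp from the rpl-7A 5′ end. B0041.9, in rpl-4, had 63.5 at chromosome I 4647066 to 4647455, with 22.5 and 37.7. That summit was 482 bp upstream of the snoRNA and 163 bp from a 5′ end of B0041.8, which is not the host. D1007.20, in rpl-24.1, had 54.4, with 15.5 and 39.9, and its summit was 432 bp upstream of the snoRNA and 298 bp from the rpl-24.1 5′ end. Over all 19 snoRNA genes with a ribosomal protein host, 4 were bound (21.1%, interval 8.51% to 43.3%), a share like that of the whole set. H06I04.9, in ubl-1, which encodes a ubiquitin-like protein fused to a ribosomal protein, had 44.2, with 13.4 and 32.1, and its summit 408 bp upstream of the snoRNA and 232 bp from the ubl-1 5′ end.

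Introns of nol-56, which encodes a core protein of C/D snoRNPs, hold 4 snoRNA genes. K07C5.10, K07C5.12 and K07C5.18 had no pooled summit. The remaining one, K07C5.11 (WBGene00044963), had a peak of 56.9 at chromosome V 10353004 to 10353393, with 11.9 in replicate 1 and 38.0 in replicate 2. The summit was 363 bp upstream of the snoRNA and 221 bp from the nol-56 5′ end. Of the other hosts with a summit at their promoter, cfim-2, a 3′ end processing factor gene, held D1046.6 with 56.8, with 27.8 and 28.0 in the replicates. The transcription factor gene zip-2 held K02F3.15 with 79.7 at chromosome III 833646 to 834035, and its summit was 406 bp past the snoRNA 5′ end and 247 bp from the zip-2 5′ end. The peak overlapping it had 8.28 in replicate 1 and 70.3 in replicate 2, and another replicate 1 peak with its summit in the region had 18.3. The D1046.6 summit was 69 bp inside the snoRNA and 146 bp from the cfim-2 5′ end. F55A11.10, in F55A11.6, had 45.2, with 21.0 and 25.3, and its summit was 4 bp inside the snoRNA and 128 bp from the host's 5′ end.

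Other intronic snoRNA genes had summits far from any protein-coding promoter. Of 29 bound genes in a sense intron, 17 were of this kind, and the median position of the summit over the 29 was −51 bp. The strongest was F11A10.9 (WBGene00045153), in rbm-34, an RNA-binding protein gene. Its peak at chromosome IV 12086454 to 12086843 reached 66.7, and the replicates gave 39.1 and 25.1. The summit was 60 bp upstream of the snoRNA and 1229 bp from any protein-coding 5′ end. C08D8.3 (WBGene00044957), in C08D8.1, had 60.1, with 39.4 and 19.5, and a summit 18 bp inside the snoRNA and 2545 bp from a protein-coding 5′ end. Both had the higher raw value in replicate 1, as did 12 of the 64 peaks, though the replicate lists need not share a scale.

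Most of the other named members of this group had the summit within 100 bp of the snoRNA 5′ end. M106.6, in mix-1, a condensin and dosage compensation gene, had 45.9, with 14.9 and 27.9, and the summit 54 bp upstream of the snoRNA and 3364 bp from a protein-coding 5′ end. ZK546.18, in the Mediator subunit gene mdt-4, had 44.1 with the summit 25 bp upstream. With 7.50 and 35.5, it was among the strongest peaks of replicate 2 only. C16D9.11, in the receptor kinase gene rol-3, had 43.6, with 16.6 and 24.5, and the summit 30 bp inside. F01D5.12, in F01D5.10, had 47.5, with 23.6 and 22.4, and the summit 55 bp upstream. C51F7.3, in frm-7, had 42.4, with 19.1 and 33.6, and the summit 78 bp upstream. T08B2.13, in fars-1, a phenylalanyl-tRNA synthetase gene, had 49.8, and C05D2.15, in madf-11, had 46.8. These last 2 had 7.0 and 3.96 in replicate 1 against 44.8 and 38.6 in replicate 2. C04A2.16, in egl-27, had 40.6, with 17.9 and 22.3, and its summit 323 bp upstream of the snoRNA and 513 bp from the egl-27 5′ end, at the edge of the 500 bp limit.

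SnoRNA genes in introns on the opposite strand were bound as well, 8 of 27 (29.6%, interval 15.9% to 48.5%), beside 29 of 145 on the host's strand (20%, interval 14.3% to 27.2%). T03F7.8 (WBGene00045071), antisense in cutl-18, had 57.0, with 28.1 and 32.1 in the replicates, and its summit was 74 bp upstream. C07A9.14, antisense in ncx-7, a sodium-calcium exchanger gene, had 46.7, with 18.9 and 31.0, and the summit 29 bp inside and 2882 bp from a protein-coding 5′ end. K02C4.7, in ltd-1, had 42.5, with 8.11 and 21.3, and its summit was 6 bp upstream of the snoRNA. ZK484.9, in haf-9, a half-transporter gene, had 40.5, with 16.3 and 26.9, and its summit was 13 bp upstream. The K02C4.7 summit was also 259 bp from the ltd-1 5′ end, and the other 3 were over 500 bp from any protein-coding 5′ end. The intervals of the sense and antisense groups overlap.

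Intergenic snoRNA genes were bound in 18 of 109 cases (16.5%, interval 10.7% to 24.6%). F59C6.15 (WBGene00045164) had the highest signal among them, 99.8 at chromosome I 10517183 to 10517283, with 45.3 and 55.6 in the replicates. Its summit was 44 bp upstream and 766 bp from a protein-coding 5′ end. M7.15 (WBGene00220032) had 80.01 at chromosome IV 11082790 to 11083179, with 38.4 and 44.5, and its summit was 162 bp upstream of the snoRNA. F09G2.14 (WBGene00219888), the longest gene of the set, had 68.2 at chromosome V 7196631 to 7196750, with 23.3 and 48.8 in the replicates. That summit was 102 bp upstream and 234 bp from a 5′ end of F09G2.2. All 3 had a peak in both replicates, and the first 2 summits were over 500 bp from any protein-coding 5′ end.

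The other intergenic genes named by signal were weaker. Y53F4B.47 had 52.0, with 21.5 and 39.6, and a summit 97 bp upstream. ZK20.9 had 48.9, with 26.1 and 21.5, at 170 bp upstream, and F12F6.11 had 45.7, with 19.9 and 27.4, at 30 bp upstream. ZK643.9 had 43.0, with 18.4 and 24.1, and a summit 98 bp inside. Y74C9A.6 had 41.9, with 4.43 in replicate 1 and 37.6 in replicate 2, and was among the strongest peaks of replicate 2 only. K02C4.8 had 41.7, with 27.7 and 16.3, and a summit 1 bp inside, and Y75B12B.12 had 39.6, with 18.5 and 23.8, and a summit 121 bp past the 5′ end.

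Where a snoRNA gene overlapped another noncoding gene, 7 of 15 were bound (46.7%, interval 24.8% to 69.9%). W06H8.17 (WBGene00220124), in W06H8.12, had 94.4 at chromosome V 6227558 to 6227947, with 57.8 and 39.4 in the replicates and a summit 203 bp upstream of the snoRNA. K07C10.2 had 52.1, with 20.8 and 25.8, and a summit 23 bp inside and 4759 bp from a protein-coding 5′ end. C41C4.11 had 50.9, with 23.4 and 29.8, and a summit 56 bp upstream, and Y39G10AR.24 had 41.2, with 13.0 and 28.2, and a summit 54 bp upstream. Of genes over an exon or edge of a protein-coding gene, F07A11.15, antisense to din-1, a nuclear receptor corepressor gene, had 51.3, with 7.41 in replicate 1 and 44.9 in replicate 2. C51F7.4 shared the 42.4 peak of C51F7.3.

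**Figure D3:**
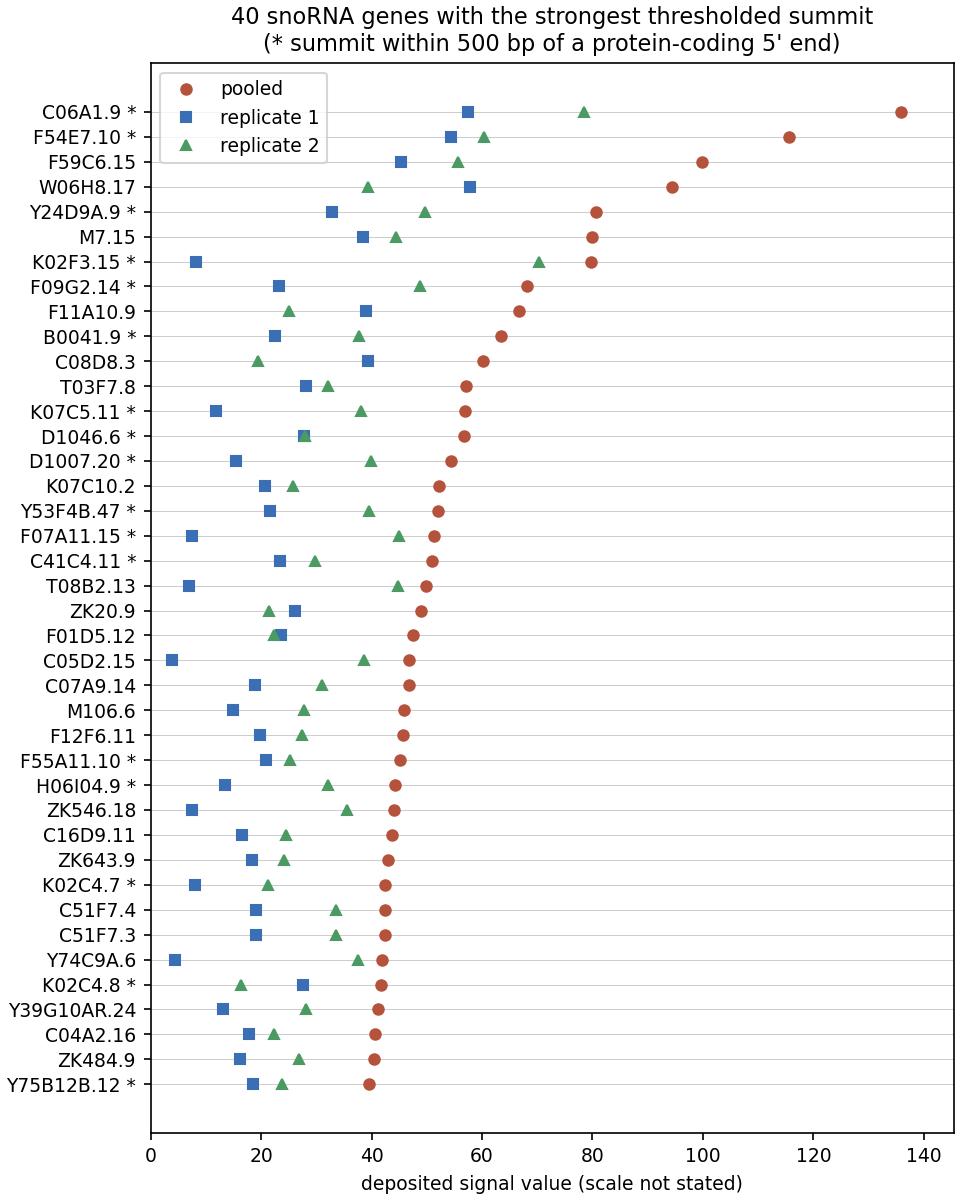
Deposited signal at the 40 bound snoRNA genes of highest signal, in the pooled list and in the strongest overlapping peak of each replicate. Stars mark summits at most 500 bp away from a protein-coding 5′ end. Replicate values range from 3.96 at C05D2.15 in replicate 1 to 78.5 at C06A1.9 in replicate 2.

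Bound snoRNA genes were shorter than unbound ones. Their median length was 99.5 bp against 133 bp. Of the 93 genes under 100 bp, 33 were bound (35.5%, interval 26.5% to 45.6%), against 33 of 253 longer genes (13%, interval 9.44% to 17.8%), with the limit of 100 bp chosen after the values were seen. By box type, 5 of 16 genes with C and D boxes were bound (31.2%, interval 14.2% to 55.6%), 17 of 85 with a terminal ACA (20%, 12.9% to 29.7%) and 44 of 245 with neither (18%, 13.7% to 23.2%). These intervals overlap.

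The snoRNA genes lie 74 on chromosome I, 71 on II, 54 on III, 59 on IV, 55 on V and 33 on X, and the bound share was lowest on X. Chromosome X held 24.9% of the other nuclear thresholded summits and 9.54% of the snoRNA genes, but 2 of the 64 snoRNA summits. Of its 33 snoRNA genes, M163.14 with 36.0 and D2021.6 with 30.8 were bound (6.06%, interval 1.68% to 19.6%). On chromosomes II and V, 19 of 71 and 15 of 55 were bound (26.8% and 27.3%). The intervals of these, 17.9% to 38.1% and 17.3% to 40.2%, overlap that of X.

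The sequence at snoRNA summits differed from that at other NHR-25 summits. Motifs were sought on both strands within 100 bp of the summit, in 64 summits at snoRNA genes and in 1737 other nuclear thresholded summits. The B box core GTTCGANNC was at 14 of the 64 (21.9%, interval 13.5% to 33.4%) and at 3.22% of the others (interval 2.49% to 4.16%). The A box core TGGCNNAGT was at 13 of 64 (20.3%, interval 12.3% to 31.7%) and at 1.73% of the others (interval 1.21% to 2.46%). The A core was added after the values were seen. Among 8-base words before bound genes, TGGCGCAG had the largest difference in share, 15.2% of bound against 1.79% of unbound genes. The A core was thus picked on that difference, and its share is a description of the set it was found in.

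Among the other motifs searched, the intervals of GAGACGCAG and GAGAGAG lay below those at the other summits, and the intervals of the remaining 3 overlapped. The NR5A site TCAAGGTCA was at 0 of 64 summits, which allows a share of up to 4.69% by 3 counts of the total and 5.66% by the Wilson interval, and at 0.979% of the others (interval 0.612% to 1.56%). The receptor half-site AGGTCA, which is part of that site, was at 4 of 64 (6.25%, interval 2.46% to 15%) against 12.8% (upper bound 14.5%). The site GAGACGCAG was at 1 of 64 (1.56%, interval 0.276% to 8.33%) against 12.8% (upper bound 14.4%). The repeat GAGAGAG was at 6 of 64 (9.38%, interval 4.37% to 19%) against 21.4% (interval 19.5% to 23.4%), and the E-box CACGTG at 1 of 64, with the same interval as GAGACGCAG, against 8.69% (interval 7.46% to 10.1%). A missing match says only that these letters were not in the window.

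Of the 4 summits with AGGTCA, the 3 that lie off the first chromosome are shown, each with up to 20 bases on either side and the motif in capitals.
ZK546.18 (chrII:4942612-4942644, minus strand): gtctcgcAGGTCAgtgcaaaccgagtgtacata
C26B2.14 (chrIV:8043903-8043948, minus strand): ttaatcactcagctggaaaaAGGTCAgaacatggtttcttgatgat
C14C10.8 (chrV:12596984-12597029, plus strand): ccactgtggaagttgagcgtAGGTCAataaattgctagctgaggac

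Many A and B box cores stood close before the bound snoRNA genes. In the shorter letters TGGCNNAG and GTTCGA, on the gene's strand, 14 of 66 bound genes (21.2%, interval 13.1% to 32.5%) had an A core starting 80 to 40 bases before the gene, against 11 of 280 unbound genes (3.93%, interval 2.21% to 6.90%). In the bound genes it began at −67 to −50, with a median of −58.5. A B core within the last 30 bases was before 12 of 66 bound genes (18.2%, interval 10.7% to 29.1%) and 8 of 280 unbound genes (2.86%, interval 1.45% to 5.54%), beginning at −20 to −8 in the bound ones. At least 1 of the 2 cores was before 19 bound genes (28.8%, interval 19.3% to 40.6%) and 15 unbound genes (5.36%, interval 3.27% to 8.65%). Before 19973 protein-coding genes, the A core was in its window in 0.365% and the B core in 0.360%, and 1 gene had both. Over all 250 bases, 14 of 15 A core matches and 12 of 15 B core matches before bound genes lay in these windows, against 11 of 25 and 8 of 22 before unbound genes. The A core was picked on the difference between bound and unbound genes. The B core was chosen with earlier results of these data known, and the windows were set after the positions were seen. The shares of bound and unbound genes are therefore no independent support. The same holds for the low shares before protein-coding genes, which used the same cores and windows. A match is a description, not a site.

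Both cores were present before 11 genes, and their spacing was measured. From the start of the A core to the start of the B core it was 43 to 52 bases in the 7 bound genes, with a median of 45, and 43 to 45 in the 4 unbound ones. Inside the 77 of 612 nuclear tRNA genes that held both in these letters, it was 44 to 94 bases with a median of 54. The 80 bases before these 34 snoRNA genes overlapped 0 annotated tRNA genes and, in 3 cases, an annotated pseudogene. Those 3 were T08B2.13, F19H8.6 and Y59E1B.14, of which T08B2.13 was bound.

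Read the other way, a snoRNA gene with either core was often bound. Of these 34 genes, 19 were bound (55.9%, interval 39.5% to 71.1%), beside 19.1% of all 346 snoRNA genes. A pooled summit was at 28 of the 34 (82.4%, interval 66.5% to 91.7%), beside 61.8% of all 346. Those 28 include all 19 bound genes, since every bound gene also had a pooled summit. The A core and the windows were picked on these same genes, so these shares are no independent support either. Among the 15 unbound genes of the 34, W03C9.9 had the highest pooled signal with 28.1, and 6 had no pooled summit. The lowest signal of the thresholded list was 30.3. The peaks of the 19 bound genes had signals from 30.4 to 66.7, with a median of 41.2, and their summits lay from −150 to 23 bp of the snoRNA 5′ end, with a median of −51. Of these 19, 16 were over 500 bp from a protein-coding 5′ end and 12 were intronic. The cores were thus before 16 of the 39 bound genes away from protein-coding promoters, and 23 of the 39 had neither.

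**Figure D4:**
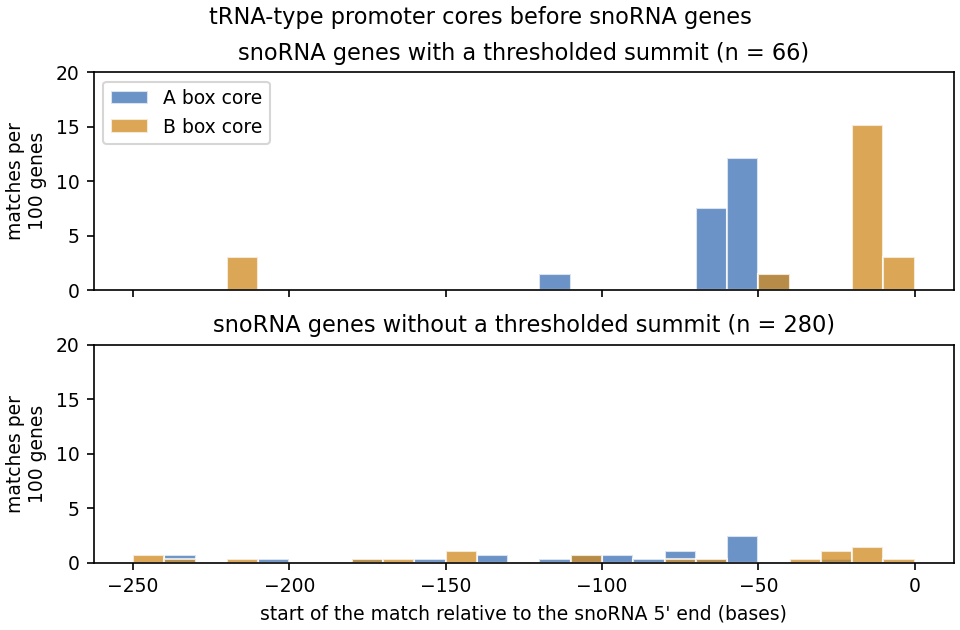
Start positions of A box cores (TGGCNNAG) and B box cores (GTTCGA) in the 250 bases before snoRNA genes, as matches per 100 genes in 10-base bins, for 66 bound and 280 unbound genes. In bound genes 14 of 15 A cores lie between −67 and −50 and 12 of 15 B cores between −20 and −8, while most cores before unbound genes lie elsewhere.

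Genes for the proteins that act with snoRNAs were bound too. Of 20 matched genes in a list of snoRNP, assembly and nucleolar proteins, 9 had a thresholded summit within 500 bp of a 5′ end, against 4.8% of all protein-coding genes. The list was chosen with earlier results of these data known. The 4 core proteins of C/D snoRNPs were all among them: fib-1, the fibrillarin methyltransferase, with a signal of 52.2, nol-56 with 56.9, snu-13 with 45.2 and nol-58 with 41.1. Of the H/ACA core proteins, the pseudouridine synthase gene dkc-1 had 32.5 and Y48A6B.3, the NHP2 homolog, had 50.8, while nola-3 and garr-1 had none. The assembly ATPase gene ruvb-1 had 37.6 and ruvb-2 none, and rpoa-1, the large subunit gene of RNA polymerase I, had 43.6 and rpoa-2 none.

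A further bound member of the list was ints-4 with 95.3, which encodes an Integrator subunit and is no snoRNP gene, and among the unbound was gar-1, which encodes an acetylcholine receptor. The other unbound members were dao-5, xrn-2, ncl-1, rrp-1, crn-3 and exos-3. The nol-56 peak is the one also counted at the snoRNA gene K07C5.11. Of 18 matched genes for RNA polymerase III and snRNA promoter factors, 0 were bound, a count too small to set against the 4.8% of all protein-coding genes. The unbound include tbp-1, brf-1, snpc-4 and tftc-3.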

How the data were processed

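The deposited lists give, for each peak, a position, the authors' signal value and a summit. Per the labels, immunoprecipitated chromatin of L4 larvae was fragmented by sonication. The replicate and pooled lists were input to the irreproducible discovery rate procedure and the thresholded list is its output, per the deposited text records. The sources used here do not name a peak caller, an aligner or a threshold. The signal scale is not stated, and the lists carry no read counts, so depth and its effect on precision are unknown.

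The ce11 lists were used, and those on ce10 were not used here. Summits were assigned to genes of the Ensembl release 115 annotation of WBcel235, and sequences come from the RefSeq genome of the same assembly. Coordinates are 1-based. Python 3.11.15 with pandas 2.3.3, NumPy 2.4.6, SciPy 1.17.1 and Matplotlib 3.10.9 was used. The assignment was tested on simulated summits. With 1 group and no control list, no test between conditions was made, and shares carry Wilson 95% intervals for counting error only. Where the same number of peaks was needed in each replicate, the 1826 with the highest signal were taken.

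The members, gene lists and motifs were chosen with earlier results of these data known. Named genes are the 40 bound genes of highest signal, the 10 highest in full, the 3 weakest bound and 5 strongest unbound genes, and every bound gene of the 2 lists. Other genes were named after their values were seen. In the lists, 4 names and 1 name had no match. Alternatives were other distances around the gene, overlap in place of the summit, a higher signal minimum, other distances to a protein-coding 5′ end, and either replicate alone.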

Additional observations from a re-analysis of the deposited data

How the results depend on the processing

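Of 45 alternative values, 35 stayed close to the reported ones, where a count within a factor of 1.5 was called close. Such counts still moved: 55 genes were bound with 250 bp added, 90 with 1000 bp and 79 by peak overlap, against 66. With 250 and 1000 bp as the distance from a protein-coding 5′ end, 49 and 30 bound genes lay away from it, against 39. With 0 bp added to the genes, 17 genes were bound by 17 summits, 11 of the genes away from protein-coding 5′ ends, and 55 had a pooled summit. With peaks at or above the median signal of the list alone, 36 genes were bound by 35 summits, 20 of them away, and the median signal was 51.3. From a single replicate the median signal ran from 19.0 to 25.8, on another scale. Leaving out summits within 500 bp of a tRNA gene, an alternative chosen after seeing the data, left 65 bound genes. No paired analysis was possible because there is only 1 group. With 2 replicates, no control list and unknown depth, the absence of a peak is not the absence of binding.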
